A study of Homo sapiens and Mus musculus with 57 samples.

Results

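The genes described here are the numbered zinc-finger genes of the human genome (symbols of the form ZNF followed by a number) that were clearly expressed in 4 human cancer cell lines, read in RNA-seq libraries after inhibition of the SUMO-activating enzyme. A gene was taken when its mean over the 12 vehicle (DMSO) libraries reached 10 CPM (counts of the gene scaled to a common library total), which held for 205 of the 477 such symbols among 30373 listed genes. The members were thus chosen by their DMSO levels, which are given as a description, without a test, and the same DMSO libraries form one side of every comparison with an inhibitor. THP-1 is a monocytic leukaemia line, HCT116 and Colo205 come from colorectal cancers and MDA-MB-231 from a breast cancer. Cells of each line were treated for 16 h with DMSO or with TAK-981 at 1 uM, and all lines but THP-1 with ML-792 at 1 uM as well, which gave 11 groups of 3 libraries (33 in all, from 17336368 to 25807864 estimated counts each). The 24 mouse libraries of the series were not used. No group carried a genetic change made for the study, per the labels. The labels speak of triplets and do not state that each came from its own culture. A p-value here sets a difference between groups against the spread of such samples, and that spread may be technical. In bulk libraries, fewer cells of a type and less RNA per cell cannot be told apart.

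Zinc-finger proteins of the C2H2 class read DNA with arrays of small zinc-bound fingers, and they form the largest family of human transcription factors. Many carry a KRAB domain, which binds the corepressor TRIM28 (KAP1). TRIM28 in turn brings in HP1 proteins, and it brings in the histone methyltransferase SETDB1 through SUMO groups attached to its own bromodomain. KRAB zinc-finger proteins are known for silencing transposable elements, and their genes stand in clusters, above all on chromosome 19, whose zinc-finger genes carry the histone mark H3K9me3 over their 3′ ends. TAK-981 and ML-792 are mechanism-based inhibitors that form a SUMO adduct in the activating enzyme (SAE1 with UBA2) and so stop the attachment of SUMO to proteins.

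Features of the members are given here as a description, and the zinc fingers go with the symbol by which the members were chosen. Of the 205 genes, 66 lay on chromosome 19, 20 on chromosome 7, 16 on chromosome 1 and 16 on chromosome 16. In proteins translated from the GENCODE 29 transcripts, 193 members held at least 1 C2H2 finger pattern, with a median of 9 and a highest number of 34, and 81 held a KRAB A-box pattern. These 81 had a median of 11 fingers, the 122 coding members without the pattern a median of 8, and 42 of the 81 lay on chromosome 19. The KRAB pattern is strict and misses genes known to encode a KRAB domain, among them ZNF84, ZNF850, ZNF445 and ZNF282, so the members without it are not a group free of KRAB. The symbols of 2 members (ZNF271 and ZNF788) had no coding transcript there. RefSeq promoters (GRCh38.p14, of which the 250 bases before the start were read) were at hand for 171 members. The ETS core motif CCGGAAG, searched on both strands, was in 30.4% of these, against 8.82% of all 27305 promoters of that table. The ZNF143-type motif, ACTACA followed by any 2 bases and TCCC, searched on both strands and chosen after promoters of members had been seen, was in 12.9% of members' promoters against 1.86% of all. The TATA box letters TATAAA were in 4.68% against 11.1%, and the GC box GGGCGG in 62.0% against 42.3%. Zinc-finger genes under the limit of 10 CPM were close to these shares, with 30.3% for the ETS core and 9.21% for the ZNF143-type motif.

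The promoters of 4 members that rose with TAK-981 in all 4 lines are printed here, because they carry these motifs and because their transcripts gave the most widely shared or the largest changes. Each runs 5′ to 3′ along the gene's strand up to the last base before the transcript start, and capitals mark the ETS core or the ZNF143-type motif in either orientation. The ETS core of ZNF274 lies 83 bases before the start (chr19:58182811-58183060, plus strand). The ZNF143-type motif lies 33 bases before the start of ZNF45 (chr19:43935283-43935532, minus strand) and 87 before that of ZNF850 (chr19:36772808-36773057, minus strand). ZNF268 holds an ETS core 138 bases and a ZNF143-type motif 53 bases before its start (chr12:133181245-133181494, plus strand).
ZNF274: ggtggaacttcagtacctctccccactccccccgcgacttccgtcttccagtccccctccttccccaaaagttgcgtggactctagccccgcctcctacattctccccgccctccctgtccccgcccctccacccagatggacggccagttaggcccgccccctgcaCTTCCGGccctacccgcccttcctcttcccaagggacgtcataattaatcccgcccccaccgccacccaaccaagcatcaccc
ZNF45: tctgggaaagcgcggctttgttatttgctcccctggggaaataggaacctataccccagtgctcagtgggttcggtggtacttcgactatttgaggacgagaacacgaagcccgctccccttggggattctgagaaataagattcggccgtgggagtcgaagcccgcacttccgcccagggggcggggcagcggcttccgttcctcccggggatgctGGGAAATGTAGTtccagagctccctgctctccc
ZNF850: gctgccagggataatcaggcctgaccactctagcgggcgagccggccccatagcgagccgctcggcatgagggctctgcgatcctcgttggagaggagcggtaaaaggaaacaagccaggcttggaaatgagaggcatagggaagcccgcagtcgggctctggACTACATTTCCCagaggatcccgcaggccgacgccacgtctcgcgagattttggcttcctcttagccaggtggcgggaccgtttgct
ZNF268: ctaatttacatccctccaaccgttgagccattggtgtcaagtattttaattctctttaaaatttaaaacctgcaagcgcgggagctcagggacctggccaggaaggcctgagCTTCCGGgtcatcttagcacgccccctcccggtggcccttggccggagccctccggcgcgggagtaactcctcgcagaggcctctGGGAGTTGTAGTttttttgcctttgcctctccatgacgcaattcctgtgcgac
A match of letters is a description and not a binding site. Of the 11 members that rose in all 4 lines 9 had a promoter in the table, of which 4 (44.4%) held the ZNF143-type motif and 2 (22.2%) the ETS core.

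Levels between genes are compared per length, as FPKM of the DMSO libraries. The highest mean FPKM over the 12 libraries belonged to ZNF706 (123), ZNF207 (76.2), ZNF146 (53.6), ZNF593 (45.3) and ZNF664 (44.3). ZNF207 encodes BUGZ, a microtubule- and BUB3-binding protein of mitosis, and ZNF593 a ribosome biogenesis factor known from its yeast homologue. The median member stood at 8.03 FPKM in THP-1, 5.17 in HCT116, 4.47 in Colo205 and 4.77 in MDA-MB-231. Members with the KRAB pattern had a median of 8.71 FPKM in THP-1 against 4.16, 3.66 and 3.76 in the other lines, while those without it had 7.33 against 6.97, 5.45 and 5.78. THP-1 was the line of highest CPM for 102 members, Colo205 for 39, HCT116 for 37 and MDA-MB-231 for 27. All 4 lines reached 10 CPM for 100 members, and 17 members reached it in 1 line only.

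Some members were nearly confined to 1 line. ZNF750, a regulator of epidermal differentiation, had 18.5 ± 1.06 FPKM (SD, n = 3) in Colo205, 0.0507 ± 0.0308 in HCT116 and 0.0089 ± 0.00781 in MDA-MB-231, and was listed at 0 in THP-1. ZNF521, a multi-zinc-finger cofactor of blood progenitors, had 13.1 ± 0.449 FPKM in THP-1 and 0.355 ± 0.149 in MDA-MB-231, the next line in order. ZNF638, which binds cytidine-rich DNA and takes part in silencing retroviral DNA, went from 74.3 ± 1.99 FPKM in THP-1 through 30.8 ± 0.306 in HCT116 and 21.6 ± 1.34 in Colo205 to 10.1 ± 0.985 in MDA-MB-231. ZNF664 had the reverse order for THP-1, with 7.39 ± 0.404 FPKM there, 37.0 ± 1.97 in MDA-MB-231, 63.3 ± 3.46 in HCT116 and 69.6 ± 3.49 in Colo205, of which the last pair lay within 2 SD of each other. At the limit, the genes just inside were ZNF524 (10.0 CPM), ZNF805 (10.2), ZNF248 (10.3), ZNF765 (10.3) and ZNF614 (10.3), and just outside were ZNF808 (9.97), ZNF254 (9.94), ZNF627 (9.65), ZNF181 (9.59) and ZNF174 (9.51).

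The labelled lines were checked against marker genes. PTPRC (162 CPM), SPI1 (201 CPM) and ELANE (1417 CPM) marked THP-1 with DMSO, where MPO was low (7.24 CPM). EPCAM stood at 280.2 CPM in HCT116 and 878 CPM in Colo205. In HCT116 the intestinal markers CDH17 (0.0501 CPM), VIL1 (0.0493 CPM) and KRT20 (0.913 CPM) were near 0, and the mesenchymal markers CAV1 (512 CPM) and CD44 (760 CPM) were high. In Colo205 CDH17 (145 CPM) and VIL1 (385 CPM) were high, CDX2 (0.696 CPM) and KRT20 (2.70 CPM) low, and the myeloid marker LYZ stood at 1706 CPM. VIM (2624 CPM) and AXL (1565 CPM) were high in MDA-MB-231. In a principal component analysis of HCT116, replicate 1 of TAK-981 stood apart on the second axis (17.2, against -0.336 and -2.14 for the other replicates), and counts without it are given beside the results of that line.

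In THP-1 cells, most of the zinc-finger transcripts rose with TAK-981. The members took 0.745 ± 0.0150% of all counts with DMSO and 1.12 ± 0.0237% with TAK-981 (SD, n = 3), and the libraries of the groups did not overlap. This share is of raw counts, without the TMM scaling used in the test. The TMM factors ran from 0.909 to 0.936 with DMSO and from 1.08 to 1.09 with TAK-981. Part of the rise in share is thus common to many genes. Of the 203 members that passed the filter on low counts, 137 rose and 25 fell at an adjusted p under 0.05 (edgeR's quasi-likelihood test over all genes), with a median log2 change of 0.42. Over all 14526 genes tested 35.5% rose and 33.9% fell, and among the other genes in the members' range of DMSO level 33.5% rose and 39.1% fell. A rise of 2-fold or more was found for 20 of the 203 members (9.85%), a smaller share than the 11.7% of all genes, and a fall of that size for 0, against 8.47% of all genes. ZNF462 and ZNF608 passed the filter with the help of the TAK-981 libraries, since not all of their DMSO libraries reached its limit (0.546 CPM). For these genes the filter favoured a rise. ZNF185 and ZNF750 did not pass it. Of the 233 genes that the treated libraries in place of the DMSO libraries would choose, 165 rose and 24 fell. That choice favours genes that rose, so these counts are no check on the choice by DMSO levels. The share of counts of mitochondrially encoded genes moved with the treatment, from 7.38 ± 0.215% to 15.5 ± 1.75%, and without these genes the counts of members that rose and fell were again 137 and 25. On the scale of log2(FPKM + 1), where the median of all genes shifted by 0.20 relative to the scaled counts, the members' median was 0.54 against 0.16 for all genes, and 159 rose and 10 fell.

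**Figure D1:**
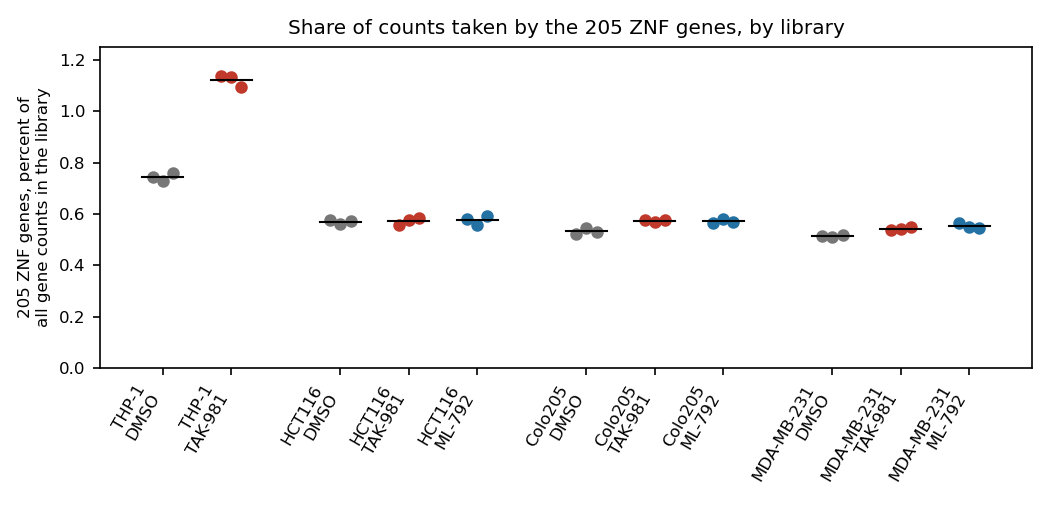
Percent of each library's counts that fell on the 205 members (vertical axis), by line and treatment, with 1 point per library and a short line for the group mean. The shares are of raw counts, without TMM scaling. The THP-1 libraries rose from 0.745% with DMSO to 1.12% with TAK-981, and the group means of the other lines lay between 0.513% and 0.576%.

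In the other lines fewer members passed the test, and rises again outnumbered falls. HCT116 had 36 rises and 5 falls among 194 members tested with TAK-981 (7.66% and 6.73% of all genes rose and fell) and 31 and 6 with ML-792 (5.99% and 5.27%). Without replicate 1 of TAK-981 the counts were 35 and 5 for TAK-981 and 39 and 8 for ML-792. Rises made up 87.8% of the calls with TAK-981 and 83.8% with ML-792 on the count scale. On log2(FPKM + 1) they made up 73.9% (17 rises, 6 falls) and 70.0% (14 and 6). The HCT116 counts rested on few libraries: without DMSO replicate 2 they came to 26 (TAK-981) and 23 (ML-792). For ML-792 they were also 21 without DMSO replicate 3 and 22, 22 and 20 without each ML-792 library in turn.

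Colo205 had 74 rises and 14 falls among 199 members with TAK-981, where 17.9% of all genes rose and 18% fell, and 78 and 17 with ML-792, where 20.9% rose and 20.8% fell. MDA-MB-231 had 43 rises and 10 falls among 202 members with TAK-981 (10.6% and 9.52% of all genes) and 56 and 9 with ML-792 (11.6% and 11%). Without ML-792 replicate 1 the MDA-MB-231 total for that compound was 41 in place of 65. The median log2 change of the members was 0.09 and 0.10 in HCT116, 0.11 and 0.14 in Colo205 and 0.07 and 0.08 in MDA-MB-231 for TAK-981 and ML-792 in that order. Both compounds were compared with the same DMSO libraries of a line, so their values stand side by side and are not independent. The members' share of counts went from 0.533 ± 0.0121% to 0.574 ± 0.00393% and 0.571 ± 0.00934% in Colo205 and from 0.513 ± 0.00290% to 0.542 ± 0.00702% and 0.552 ± 0.0105% in MDA-MB-231, for TAK-981 and then ML-792. In HCT116 it was 0.570 ± 0.00667% with DMSO and 0.572 ± 0.0154% and 0.576 ± 0.0178% with the inhibitors.

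**Figure D2:**
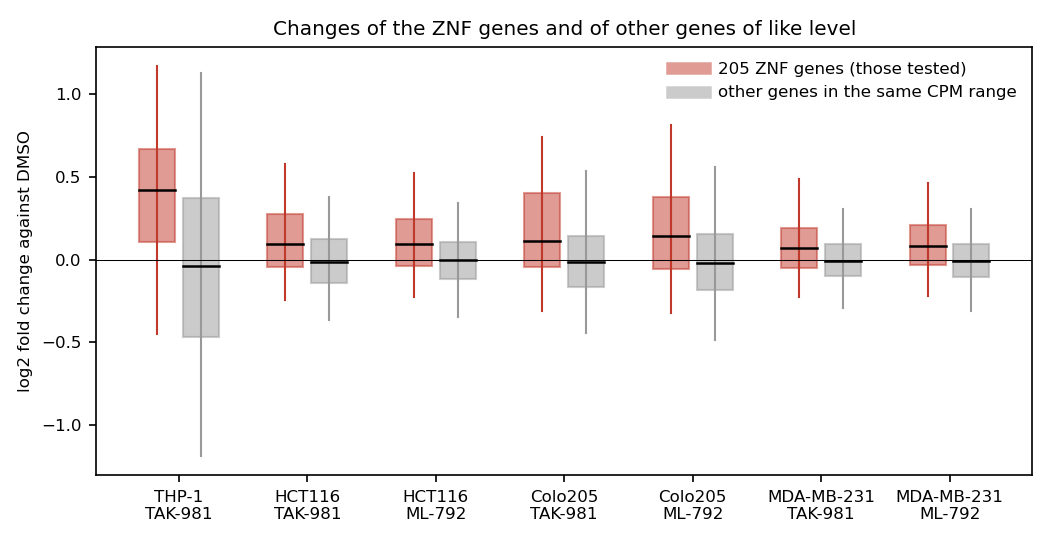
Distribution of log2 fold changes of the members and of the other genes in the same range of DMSO level, for 7 comparisons with DMSO; the box spans the 25th to the 75th percentile, the line the 5th to the 95th, and the black mark is the median. The members' medians lie above 0 in each comparison, from 0.07 (MDA-MB-231 with TAK-981) to 0.42 (THP-1).

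A larger share of the members with the KRAB pattern rose than of those without it. In THP-1, 60 of 81 of these rose and 6 fell, while 76 of 120 members without the pattern rose and 18 fell. In HCT116 the counts were 25 rises and 0 falls of 74 against 11 and 5 of 119 with TAK-981, and 22 and 1 against 9 and 5 with ML-792. Colo205 gave 43 and 1 of 78 against 31 and 13 of 119 with TAK-981, and 45 and 1 against 33 and 16 with ML-792. MDA-MB-231 gave 25 and 2 of 81 against 17 and 8 of 119 with TAK-981, and 30 and 0 against 25 and 9 with ML-792. Of all genes, 35.5% rose and 33.9% fell in THP-1. With TAK-981 the shares were 7.66% and 6.73% in HCT116, 17.9% and 18% in Colo205 and 10.6% and 9.52% in MDA-MB-231. With ML-792 they were 5.99% and 5.27%, 20.9% and 20.8%, and 11.6% and 11%. The counts of members without the pattern in HCT116 are near the shares of all genes. These counts are descriptions of the classes, and the difference between the classes was not tested.

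Position on chromosome 19 went with the same pattern. Of the members with the KRAB pattern on chromosome 19, 36 of 42 (85.7%) rose in THP-1, 19 of 37 (51.4%) in HCT116, 30 of 39 (76.9%) in Colo205 and 19 of 42 (45.2%) in MDA-MB-231 with TAK-981. Those on other chromosomes rose in 61.5%, 16.2%, 33.3% and 15.4% of cases in the same order. With ML-792 the chromosome 19 members rose in 48.6%, 71.8% and 54.8% of cases in HCT116, Colo205 and MDA-MB-231, and those elsewhere in 10.8%, 43.6% and 17.9%. Other genes of chromosome 19 in the members' range of level rose in 34.1%, 19.4%, 17.5% and 13.2% of cases with TAK-981, which was close to the share of all genes except in HCT116, where 91 of 470 rose and 10 fell.

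**Figure D3:**
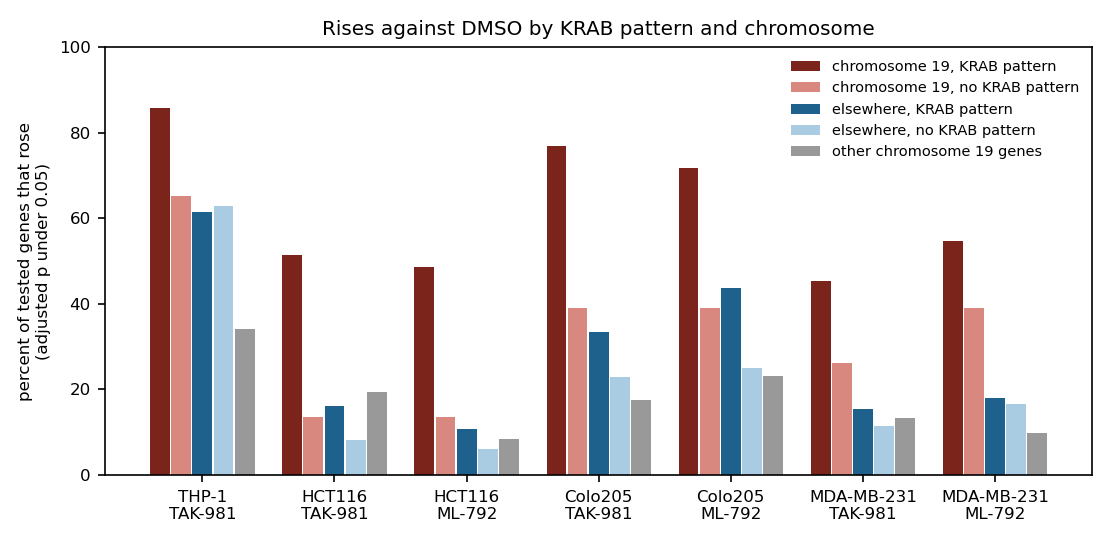
Percent of tested members that rose, in 7 comparisons with DMSO, for members with and without the KRAB pattern on chromosome 19 and elsewhere, beside other chromosome 19 genes in the same range of DMSO level. The class of KRAB members on chromosome 19 has the highest bar in each comparison, from 45.2% to 85.7%.

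With TAK-981, 11 of the 188 members tested in all 4 lines rose in each of them (5.85%, against 1.02% of all 11527 genes tested in all 4 and 1.05% of those with at least 10 CPM), and 0 fell in each. These were ZNF227, ZNF268, ZNF274, ZNF28, ZNF317, ZNF45, ZNF532, ZNF559, ZNF655, ZNF84 and ZNF850. For ZNF268, ZNF274, ZNF532, ZNF655 and ZNF84 the call held in each of the 24 fits that left out 1 DMSO or TAK-981 library. Counts were fractional in 13 libraries for ZNF268, 24 for ZNF559, 11 for ZNF28 and 7 for ZNF227, so the values of these 4 are uncertain. A further 25 members rose in 3 lines, 2 (ZNF512 and ZNF839) fell in 3, 15 moved in opposite directions in different lines, and 21 passed the test in none.

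ZNF274 is a zinc-finger protein with a KRAB domain that binds the 3′ ends of zinc-finger genes and brings SETDB1 there. In THP-1 it stood at 61.4, 59.3 and 63.4 CPM with DMSO and 151, 157 and 151 with TAK-981 (CPM of single libraries, scaled by TMM, here and below). In HCT116 it stood at 11.6, 10.2 and 9.33 with DMSO, 23.7, 21.9 and 21.7 with TAK-981 and 20.8, 20.3 and 22.2 with ML-792. Every treated library was above every DMSO library in both lines. The log2 change was 1.32 (SE 0.0638, adjusted p = 5.07e-10) in THP-1, 1.11 (SE 0.0941, adjusted p = 3.1e-06) in HCT116 with TAK-981 and 1.03 (SE 0.0947, adjusted p = 7.99e-06) there with ML-792. In Colo205 it rose by 0.59 (SE 0.0924) and 0.63 (SE 0.0925) and in MDA-MB-231 by 0.32 (SE 0.0466) and 0.34 (SE 0.0462), for TAK-981 and ML-792. The size of the rise with TAK-981 differed between the lines (interaction of treatment with line, adjusted p = 5.56e-10).

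ZNF84, a gene of chromosome 12 with a KRAB domain, had its largest change in Colo205. Its libraries there read 15.2, 18.8 and 16.4 CPM with DMSO, 33.9, 34.3 and 34.2 with TAK-981 and 35.3, 35.6 and 35.0 with ML-792, without overlap between DMSO and either inhibitor. The rises were 1.02 (SE 0.0717, adjusted p = 1.5e-07) and 1.07 (SE 0.0717, adjusted p = 9.63e-08) on the log2 scale. In THP-1 it rose by 0.89 (SE 0.0648), in HCT116 by 0.84 (SE 0.0823) and 0.66 (SE 0.0831), and in MDA-MB-231 by 0.55 (SE 0.0755) and 0.65 (SE 0.0742). ZNF532, which with ZNF592 and ZNF687 forms the Z3 complex around the chromatin reader ZMYND8, was another shared rise. It went from 9.17, 14.6 and 11.8 CPM to 28.6, 30.7 and 30.3 with TAK-981 and 23.8, 28.7 and 27.5 with ML-792 in Colo205. The treated libraries lay above the DMSO libraries throughout, with log2 changes of 1.32 (SE 0.123, adjusted p = 2.23e-06) and 1.16 (SE 0.124, adjusted p = 8.16e-06). In THP-1 ZNF532 rose by 1.17, ZNF592 by 0.30 and ZNF687 by 0.55, and in MDA-MB-231 ZNF592 rose with both compounds (0.16 and 0.15) while ZNF687 did not pass the test.

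**Figure D4:**
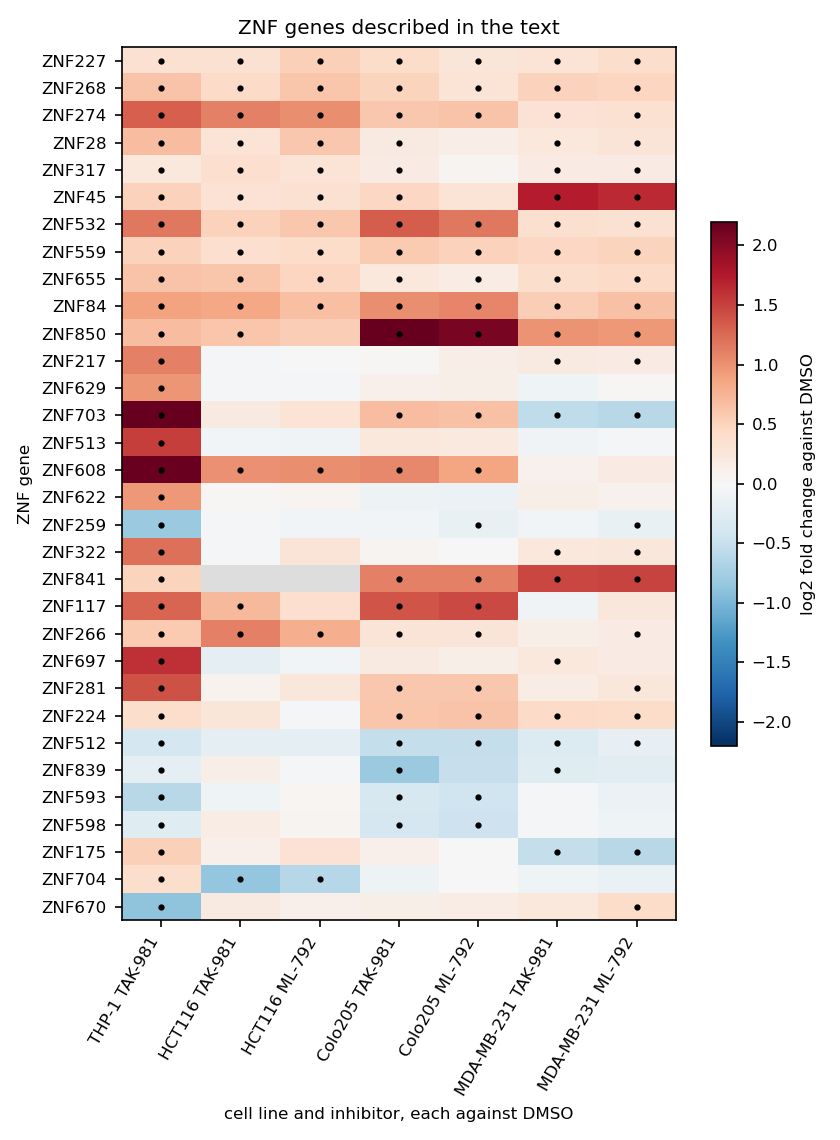
Log2 fold change against DMSO of 32 members (rows) in 7 comparisons (columns), with a dot where the adjusted p was under 0.05 and grey where the gene was not tested. ZNF274, ZNF84 and ZNF532 have a dot in every column, while ZNF703 rose in THP-1 and Colo205 and fell in MDA-MB-231. The THP-1 dot of ZNF608 belongs to a gene that passed the filter there with the help of the TAK-981 libraries.

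ZNF850 and ZNF45 were rises of unequal size. ZNF850 read 2.25, 2.77 and 2.05 CPM with DMSO in Colo205, 10.8, 11.4 and 10.2 with TAK-981 and 9.53, 9.93 and 10.6 with ML-792, and groups did not overlap. That is a log2 rise of 2.19 (SE 0.129, adjusted p = 2.42e-08) and 2.08 (SE 0.130, adjusted p = 4.93e-08). The change was 0.68 in THP-1, 0.62 and 0.55 in HCT116 (the latter not called, adjusted p = 0.0938), and 0.98 and 0.96 in MDA-MB-231. The call of ZNF850 in HCT116 with TAK-981 was lost in 5 of the fits that left out 1 library. The change in HCT116 was smaller than in Colo205 by 1.58 and that in THP-1 by 1.54 on the log2 scale in the test of line pairs. ZNF45 had its largest rise in MDA-MB-231, from 18.6, 18.4 and 18.8 CPM to 59.7, 61.3 and 63.3 with TAK-981 and 60.1, 57.6 and 57.0 with ML-792. No treated library came near the DMSO libraries there, and the log2 changes were 1.72 (SE 0.0499, adjusted p = 1.4e-12) and 1.64 (SE 0.0497, adjusted p = 2.29e-12). In THP-1 it rose by 0.51 and in HCT116 by 0.32 and 0.34. In Colo205 it rose by 0.46 with TAK-981 and was not called with ML-792 (0.30, adjusted p = 0.14), and DMSO and treated libraries overlapped. The TAK-981 calls of ZNF45 were lost in 5 of the fits that left out 1 library in HCT116 and in 3 in Colo205. The promoters of these 2 genes, printed above, share the ZNF143-type motif in opposite orientations.

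Neighbouring zinc-finger genes were read beside these members. A neighbour here is one of the next ZNF genes in order along the chromosome, at whatever distance. ZNF45 lies among ZNF283, ZNF404, ZNF221, ZNF155 and ZNF230, all under the limit of 10 CPM, and each of them rose in MDA-MB-231 with TAK-981 (1.12, 1.28, 1.55, 0.49 and 0.67), while ZNF428, a member further out beyond ZNF283, fell there (-0.23). In Colo205, where ZNF45 rose by 0.46, ZNF221 rose (0.99) and ZNF428 fell (-0.39). The neighbours ZNF283, ZNF404, ZNF155 and ZNF230 were not called in Colo205 (0.24, -0.01, -0.05 and 0.09). In THP-1 ZNF283, ZNF155 and ZNF230 rose (1.07, 0.76 and 1.01), and in HCT116 ZNF221 and ZNF155 (0.95 and 0.90). ZNF841 rose by 1.47 (SE 0.0779, adjusted p = 2.04e-09) in MDA-MB-231 and 1.10 (SE 0.108, adjusted p = 3.63e-06) in Colo205 with TAK-981. Its neighbours ZNF614 (a member), ZNF432 and ZNF616 rose in the same lines, by 0.57, 0.85 and 0.61 in MDA-MB-231 and 0.37, 0.86 and 0.61 in Colo205, while ZNF615, ZNF836 and ZNF766 were not called in MDA-MB-231 (0.27, 0.17 and 0.20). Around ZNF84 on chromosome 12, the members ZNF605 and ZNF140 rose in THP-1 (0.48 and 0.86), Colo205 (0.81 and 0.61) and MDA-MB-231 (0.25 and 0.37), and ZNF664 did not pass the test in any line. ZNF26, the member next to ZNF84, rose in Colo205 (0.68) and was not called in THP-1 (-0.05), HCT116 (0.47) or MDA-MB-231 (0.18). Around ZNF532 in Colo205 with TAK-981, ZNF236 rose (0.53) and ZNF271, ZNF24, ZNF396, ZNF407 and ZNF516 were not called. Around ZNF703, ZNF706 fell in THP-1 and Colo205 (-0.33 and -0.33), where ZNF703 rose. In THP-1 ZNF395, ZNF704 and ZNF572 rose (0.24, 0.39 and 2.22). Around ZNF850 in Colo205, ZNF567 rose (1.08), and ZNF790 and ZNF345 were not called. Around ZNF117 there, ZNF107, ZNF138, ZNF273 and ZNF92 rose, and ZNF789 and ZNF394 were not called. Distances were not measured, so a neighbour in this order may lie far from the member. Neighbours that share a cluster with a member are not independent cases.

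**Figure D5:**
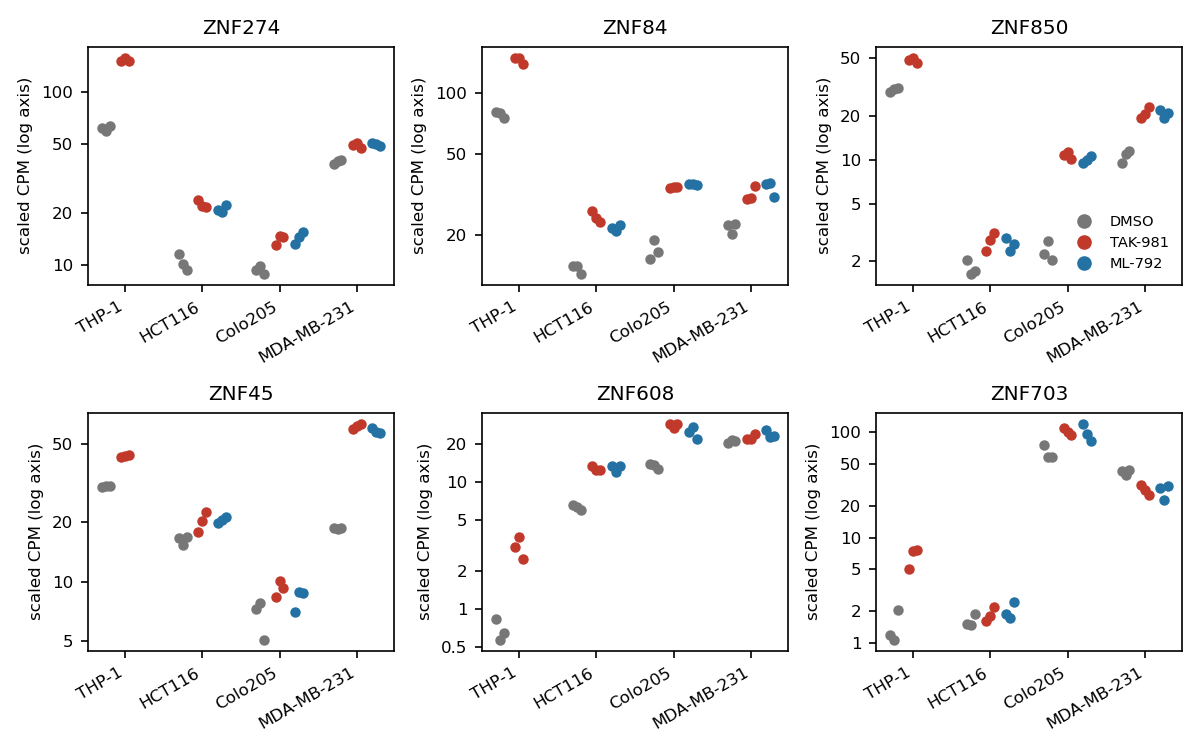
Scaled CPM (log axis) of ZNF274, ZNF84, ZNF850, ZNF45, ZNF608 and ZNF703 in every library, by line and treatment, with 1 point per library. ZNF274 and ZNF84 are higher in treated libraries of each line, ZNF45 stands apart in MDA-MB-231, and ZNF703 is higher with TAK-981 in THP-1 and lower in MDA-MB-231.

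The largest rises in THP-1 were those of 2 genes that did not rise in every line. ZNF703, a repressor of the NET family known from luminal breast cancer, read 1.18, 1.08 and 2.06 CPM with DMSO and 5.03, 7.54 and 7.56 with TAK-981. The groups did not overlap, and the log2 change was 2.22 (SE 0.247, adjusted p = 1.99e-06). ZNF608 read 0.828, 0.568 and 0.647 with DMSO and 3.10, 3.72 and 2.49 with TAK-981, a log2 change of 2.18 (SE 0.269). In THP-1 not all of its DMSO libraries reached the limit of the filter. It passed there with the help of the TAK-981 libraries, which favours a rise, so that no p-value is printed for its change within THP-1. It is still counted among the members that rose in THP-1. ZNF697 (1.61), ZNF513 (1.52), ZNF211 (1.45), ZNF281 (1.40), ZNF117 (1.28) and ZNF322 (1.22) rose more than 2-fold as well. The deposited counts of ZNF513, ZNF117 and ZNF322 were fractional in all 33 libraries and those of ZNF211 in 22, so part of their reads was shared out between genes and their values are uncertain.

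ZNF703 went the other way in MDA-MB-231, from 42.8, 38.8 and 43.8 CPM with DMSO to 31.4, 28.3 and 25.4 with TAK-981 and 29.3, 22.7 and 31.1 with ML-792. It fell by 0.56 on the log2 scale (SE 0.0962, adjusted p = 0.000543) and 0.60 on the log2 scale (SE 0.0955, adjusted p = 0.000247). The change in THP-1 exceeded that in MDA-MB-231 by 2.78 on the log2 scale (SE 0.252, adjusted p = 4.67e-10). In Colo205 ZNF703 rose by 0.67 and 0.64, and in HCT116 it was not called (0.19 and 0.29). ZNF608 rose in HCT116 (1.01 and 1.03) and Colo205 (1.06 and 0.87) and was not called in MDA-MB-231 (0.10 and 0.18).

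Across the lines, the response to TAK-981 differed for 147 of the 205 members (71.7%) in the test of interaction with line, which lay between the 57.7% of all genes and the 75% of genes with at least 10 CPM. Most of this lay between THP-1 and the rest. The pairs of THP-1 with HCT116, Colo205 and MDA-MB-231 differed for 113, 108 and 116 members (55.1%, 52.7% and 56.6%), against 47.2%, 43.7% and 45.2% of all genes and 62.6%, 58.5% and 60.5% of genes with at least 10 CPM. The change was higher in THP-1 for 88, 77 and 96 of these members. Among the genes with at least 10 CPM that differed, it was higher in THP-1 for 2807 of 6518, 2492 of 6095 and 2746 of 6302. HCT116 and Colo205 differed for 29 members (14.1%, against 13.3% of all genes and 18.4% of those with at least 10 CPM) and HCT116 and MDA-MB-231 for 13 (6.34%, against 6.85% and 9.91%). In all 5 of these pairs the members' share was below that of genes with at least 10 CPM. Colo205 and MDA-MB-231 differed for 35 (17.1%, against 11.2% and 15.6%), of which 31 were higher in Colo205. Of the 1628 genes with at least 10 CPM that differed in that pair, 968 were higher in Colo205.

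Regulators of transcription listed apart from the KRAB factors are 16 members, of which 10 (62.5%) rose and 0 fell in THP-1, where 35.5% of all genes rose and 33.9% fell. ZNF281, a GC-box binding factor, rose by 1.40 (SE 0.133, adjusted p = 3.91e-07) and ZNF217, a repressor bound by CtBP and CoREST, by 1.11 (SE 0.0680, adjusted p = 4.68e-09). ZNF143, the activator after which the promoter motif is named, rose by 0.46 in THP-1 and by 0.56 and 0.70 in Colo205, and was not called in HCT116 or MDA-MB-231. In Colo205 6 of 15 regulators (40.0%, against 17.9% of all genes) rose with TAK-981, among them ZNF652 at 0.62 with TAK-981 and 0.81 with ML-792. ZNF410, the activator of CHD4, fell there by 0.22 with ML-792. Its call with TAK-981 (-0.14) was lost in each of the 6 fits that left out 1 library of that comparison. In HCT116 TAK-981 gave 2 rises among 15 (7.66% of all genes rose) and ML-792 gave 0. MDA-MB-231 had 2 rises and 1 fall among 16 with TAK-981 and 4 and 1 with ML-792, where 10.6% and 11.6% of all genes rose. The counts in HCT116 and with TAK-981 in MDA-MB-231 are near those shares. Among all members tested, 137 of 203 rose in THP-1 and 74 of 199 in Colo205 with TAK-981. The regulators' shares of rises in these lines are near those of the members at large.

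Of 8 members known as KRAB factors, 7 (87.5%, against 35.5% of all genes and 137 of the 203 members tested) rose in THP-1. Besides ZNF274 these were ZNF746 (0.54), the parkin substrate PARIS, ZNF224 (0.39), ZNF445 (0.34), an imprinting factor, ZNF282 (0.29), ZNF263 (0.29) and ZNF93 (0.18), which binds LINE-1 elements. ZNF202 was not called (0.01). In HCT116 ZNF274 and ZNF746 rose with both compounds, and in MDA-MB-231 ZNF274 and ZNF224. The calls of ZNF274 held in all fits that left out 1 library. Those of ZNF746 in HCT116 were lost in 4 (TAK-981) and 5 (ML-792) of 6 such fits, those of ZNF224 in MDA-MB-231 in 4 for each compound and that of ZNF93 in THP-1 in 5. The SUMO ligase ZNF451 rose in THP-1 by 0.26 (SE 0.0678, adjusted p = 0.00326) and in MDA-MB-231 with ML-792 by 0.14, and was not called in the other comparisons. ZNF131, a BTB protein and SUMO substrate, was called in none.

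Of 8 members with roles in RNA and ribosomes, 3 fell and 2 rose in THP-1, which is near the 33.9% and 35.5% of all genes and no result about the list. ZNF593 read 38.6, 35.5 and 38.2 CPM with DMSO and 25.5, 26.1 and 22.0 with TAK-981 and fell by 0.61 on the log2 scale (SE 0.0847, adjusted p = 1.85e-05). ZNF346, a double-stranded RNA binding protein, fell by 0.60, and ZNF598, the ubiquitin ligase of collided ribosomes, by 0.26, though the call of ZNF598 was lost on the FPKM scale (-0.05). ZNF622, which acts in maturation of the large ribosomal subunit as known from yeast, rose by 0.95 (SE 0.0809, adjusted p = 1.31e-07), and ZNF638 by 0.43. In Colo205 ZNF593 and ZNF598 fell too, by 0.34 and 0.36 with TAK-981 and 0.44 and 0.45 with ML-792, ZNF106 fell with ML-792 (-0.32), and ZNF326 and ZNF207 rose with both. No member of this list fell in HCT116 or MDA-MB-231 at the threshold, and 0 of 8 rose in HCT116. In MDA-MB-231 ZNF106 rose with both compounds (0.24 and 0.25) and ZNF638 with ML-792 (0.20).

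Other falls belonged to genes of mixed kinds. ZNF259 (ZPR1, a binding partner of the translation factor eEF1A) read 71.6, 71.1 and 69.3 CPM with DMSO and 39.3, 38.9 and 41.5 with TAK-981 in THP-1 and fell by 0.82 on the log2 scale (SE 0.0666, adjusted p = 7.57e-08). ZNF692 fell by 0.72 and ZNF670, with fractional counts in 30 libraries, by 0.89 in the same line. The largest falls in HCT116 were those of ZNF704 (-0.84 and -0.62) and ZNF469 (-0.61 and -0.77). In MDA-MB-231 ZNF175 (-0.52 and -0.61), ZNF395 (-0.42 and -0.44) and ZNF185, a LIM-domain protein of the actin cytoskeleton (-0.40 and -0.44), fell with both compounds. ZNF185 fell in HCT116 as well (-0.38 and -0.38) and rose in Colo205 (0.23 and 0.22). Without an account of strand in the sources used here, reads of members that overlap another gene on the opposite strand cannot be told apart.

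The partners of KRAB proteins are not members and moved in mixed directions. Of 16 genes of the TRIM28, SETDB1, HP1, NuRD, HUSH and DNA methylation machinery, 3 rose and 7 fell in THP-1, 4 and 2 in HCT116, 3 and 3 in Colo205 and 5 and 2 in MDA-MB-231 with TAK-981. Of all genes, 35.5% rose and 33.9% fell in THP-1, 7.66% and 6.73% in HCT116, 17.9% and 18% in Colo205 and 10.6% and 9.52% in MDA-MB-231, so the 3 and 3 of 16 in Colo205 are at the share of all genes. With ML-792 the counts were 3 and 1, 3 and 3, and 5 and 2. ATF7IP, the SETDB1 partner that binds SUMO, rose in all 7 comparisons, by 1.5 in THP-1, 1.5 and 1.83 in HCT116, 1.3 and 1.04 in Colo205 and 0.58 and 0.59 in MDA-MB-231. CBX5, which encodes HP1 alpha, fell by 1.05 in THP-1. TRIM28 itself was not called in THP-1 (0.17, adjusted p = 0.0574) or Colo205 and rose in HCT116 with both compounds (0.26 and 0.26) and in MDA-MB-231 with TAK-981 (0.11). Both subunits of the inhibited enzyme fell with TAK-981 in THP-1 (SAE1 -0.68, UBA2 -0.41) and in Colo205 (-0.13 and -0.15).

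TAK-981 and ML-792 were compared directly in the 3 lines that received both at the same dose and time. No member was called between the compounds: 0 of 194 in HCT116, 0 of 199 in Colo205 and 0 of 202 in MDA-MB-231 passed edgeR's quasi-likelihood test, where 7, 1 and 3 genes did over the whole table (0.0481%, 0.00707% and 0.0215% of all genes tested). At an unadjusted p under 0.05 the members were 33, 18 and 9, or 17.0%, 9.05% and 4.46%, against 13.1%, 12.3% and 6.1% of all genes. DESeq2 called 2 members in HCT116, among 97 genes in all. In Colo205, where libraries of the same replicate number deviated together, the fit with the replicate block called 5 members (3 higher with TAK-981, 2 lower), or 2.51%, against 624 genes in all (4.41%). Without ML-792 replicate 2 there were 10 members (5.03%) and 943 genes (6.61%). In both fits the members' share was below that of all genes. The 95% interval of the difference lay within 2-fold for 193, 199 and 201 members and within 1.5-fold for 181, 192 and 198. For ZNF274 the interval of TAK-981 minus ML-792 on the log2 scale ran from -0.10 to 0.28 in HCT116, for ZNF850 from -0.12 to 0.34 in Colo205 and for ZNF45 from -0.02 to 0.17 in MDA-MB-231. The member with the smallest adjusted p was ZNF789 in HCT116, with a difference of 0.72 (SE 0.161, adjusted p = 0.138). A p that misses the threshold does not show that the compounds act alike, and these intervals give the size of difference that the libraries leave possible.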

How the data were processed

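RNA-seq was measured in 33 human libraries, and their groups follow the line and the treatment in the labels. Per the labels' protocols, poly(A) RNA was made into TruSeq libraries and read in pairs on a NovaSeq machine. Which aligner, counter, build, annotation and strand setting were used is not given in the sources used here. Per the file headers, the files give an expected count and an FPKM for each gene. The authors deposited these estimated counts without normalization, and they were fractional in some library for 54 members. The FPKM values of the authors, which take gene length into account, served for levels between genes and for an alternative.

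Expected counts were rounded to whole numbers. All genes of a line were fitted together in edgeR 4.0.16 under R 4.3.3, after filterByExpr with a count minimum of 10 and a total minimum of 15, with the quasi-likelihood F-test on TMM-scaled libraries. A gene was called at a p under 0.05 after Benjamini-Hochberg adjustment over all genes tested, and the members' values were read from that table. A difference between lines is the term for TAK-981 and line together, tested over the DMSO and TAK-981 libraries. Intervals are at the 95% level. The scripts were tested on simulated data. Alternatives were RLE scaling, no filter, mitochondrial genes left out, DESeq2 1.42.0, limma 3.58.1 on log2(FPKM + 1) and log2(FPKM + 0.1), other limits for members, a replicate block and leaving out each library in turn.

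Members and gene lists were chosen with earlier results of these data known. The genes named are the largest called changes without overlap between groups, the members called in all 4 lines, those with the smallest p for a difference between lines, the highest levels and the lists. Neighbours and the splits by KRAB pattern and chromosome were chosen after values were seen. KRAB, SCAN and finger patterns were counted by regular expression. Libraries with the same replicate number deviated together (each of 3 correlations of deviations from the group means over 0.1) in Colo205 for ML-792 with DMSO and for TAK-981 with ML-792, and in MDA-MB-231 for TAK-981 with DMSO.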

Additional observations from a re-analysis of the deposited data

Results flagged for a closer look

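The change with TAK-981 differed between the 4 lines for each of the following members, by the interaction test in edgeR with adjustment over all genes. The 10 members with the smallest adjusted p are given. ZNF217 (adjusted p = 8.01e-12) rose by 1.11 on the log2 scale in THP-1 and by 0.19 in MDA-MB-231 and was not called in HCT116 (-0.04) or Colo205 (0.02). ZNF629 (adjusted p = 3.24e-10) rose by 0.98 in THP-1 and was called in no other line. ZNF274 (adjusted p = 5.56e-10) rose in each line, by 1.32 in THP-1, 1.11 in HCT116, 0.59 in Colo205 and 0.32 in MDA-MB-231. ZNF45 (adjusted p = 5.89e-10) also rose in each line, by 1.72 in MDA-MB-231 and by 0.32 to 0.51 in the others. Its calls in HCT116 and Colo205 were lost in 5 and 3 of the fits that left out 1 library. ZNF703 (adjusted p = 1.09e-09) rose in THP-1 and Colo205 and fell in MDA-MB-231.

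ZNF513 (adjusted p = 1.28e-09) rose by 1.52 and ZNF322 (adjusted p = 9.96e-09) by 1.22 in THP-1. Both had fractional counts in all 33 libraries, so that their values are uncertain. ZNF608 (adjusted p = 1.87e-09) rose in HCT116 and Colo205. In THP-1, which this test includes, not all of its DMSO libraries reached the limit of the filter used for that line. ZNF622 (adjusted p = 3.07e-09) rose by 0.95 in THP-1 only among the 4 lines, and ZNF259 (adjusted p = 4.35e-09) fell there by 0.82.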

How the results depend on the processing

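The members' median lay above that of all genes in 55 of 55 settings run against DMSO. With the limit at 20 CPM the members called were 75 in THP-1, 22 and 19 in HCT116, 40 and 45 in Colo205 and 26 and 32 in MDA-MB-231 (TAK-981, then ML-792), of 99 members. With whole counts only they were 21 and 21 in HCT116 and 35 and 42 in MDA-MB-231, of 151 members. Neither choice of members changes the calls over all genes, whose shares stand beside the main results above. On log2(FPKM + 1) HCT116 had 23 and 20, and on log2(FPKM + 0.1) 23 and 21. Between the compounds, no filter and DESeq2 each gave 2 in HCT116. Leaving out each library gave 147 to 162 in THP-1 (162 with all), 26 to 40 and 20 to 47 in HCT116 (41 and 37), 69 to 95 and 76 to 96 in Colo205 (88 and 95), 38 to 53 and 41 to 63 in MDA-MB-231 (53 and 65), 0 to 10 between the compounds in Colo205 and 0 in the other lines, and 142 to 158 for the difference between lines. The causes were not tested. Chosen by the treated libraries, 233 genes were members, 204 of them shared. Of 3016 alternative values for 201 named changes, 2766 kept their direction and their side of the threshold, 250 no longer passed it and 0 reversed.

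With the replicate block, 38 and 33 members were called in HCT116, 100 and 110 in Colo205, 62 and 73 in MDA-MB-231, and 5 between the compounds in Colo205. Over all genes the block gave 1819 and 1436 calls of 14563 in HCT116, against 2096 and 1641 without it. In Colo205 it gave 6107 and 6891 of 14152, against 5087 and 5909, and 624 between the compounds. In MDA-MB-231 it gave 3505 and 3865 of 13976, against 2818 and 3164. The pairing did not hold in HCT116, with correlations from -0.37 to 0.28. No paired analysis was possible because of unshared replicate numbers in THP-1. Fractional counts limit the values of 54 members.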

Other observations

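Zinc-finger genes under the limit of 10 CPM, which are not members, rose more often than they fell. In THP-1 167 of 218 tested rose and 1 fell with TAK-981. The counts were 31 and 2 of 157 in HCT116, 64 and 1 of 183 in Colo205 and 57 and 2 of 218 in MDA-MB-231 with TAK-981, and 29 and 2, 70 and 4, and 63 and 4 with ML-792. Of all genes tested, 35.5% rose and 33.9% fell in THP-1. With TAK-981 the shares were 7.66% and 6.73% in HCT116, 17.9% and 18% in Colo205 and 10.6% and 9.52% in MDA-MB-231. With ML-792 they were 5.99% and 5.27%, 20.9% and 20.8%, and 11.6% and 11%. Genes of low level pass the filter more readily through the group where they are high, so the counts of genes under the limit are given as a description. Around ZNF274, the neighbours ZNF329 and ZNF606 rose in THP-1 by 1.46 and 1.56, and ZNF329 also in HCT116 (0.84) and Colo205 (0.51). On the other side of ZNF274, the member ZNF544 rose in THP-1 (0.51), HCT116 (0.33) and Colo205 (0.42), ZNF8 rose in THP-1 (1.23) and was called in no other line, and ZNF497 was called in none (0.10 in THP-1).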
